A study of Mus musculus with 13 samples.

Results

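Set 1 of the series held 8 primary cultures of dermal fibroblasts from newborn mice, and the comparison described here set the 4 cultures with later H numbers in their titles against the 4 with earlier H numbers. These are 8 of the 13 libraries of the series. The later-numbered cultures were the wild-type (WT) cultures W3 and W4 (H7114 and H7115) and the mutant cultures M3 and M4 (H7112 and H7113). The earlier-numbered cultures were the WT cultures W1 and W2 (H6755 and H6993) and the mutant cultures M1 and M2 (H6989 and H6991). Mutant cultures were homozygous for the G234D allele of Fbn1, the gene of fibrillin-1, which builds the microfibrils of connective tissue. All 8 cultures were untreated and came from dermis. Each was counted as a separate replicate in the fits, and the titles do not say whether each came from its own mouse. The later numbers are consecutive, whereas W1 lies far below the other earlier numbers. No label says what the H number stands for, when a culture was made or how often it was passaged, so it is called a number group here and not a batch. The study as a whole asked whether the mutation changes fibroblasts themselves, in particular their matrix genes. The number group was balanced over genotype, with 2 cultures of each genotype on each side, and genotype was a term of the model.

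Dermal fibroblasts make the collagens, proteoglycans and elastic fibres of the skin. In culture on plastic they take on features of myofibroblasts, the contractile cells of wounds, which carry smooth muscle actin in stress fibres, and TGF-beta and stiff substrates promote that state. The neonatal dermis holds a papillary layer under the epidermis, a reticular layer below it and a hypodermal layer with adipocyte precursors. Primary cultures can also carry along some macrophages, muscle precursors and Schwann cells from the skin.

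Values were TPM (transcripts scaled to a fixed total), a level per unit of transcript length so that genes can be compared within a library. Differences are given as later minus earlier on the log2(TPM + 1) scale, which understates the change of genes near 1 TPM. A gene was called higher or lower when its adjusted p was under 0.05 in limma's moderated test, with Benjamini-Hochberg adjustment over the 11901 genes at 1 TPM or more in at least 4 of the 8 libraries. Errors printed with ± are standard errors of the difference, from 4 cultures a side in set 1 and from 2 a side within a genotype.

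The cultures carried the labelled cell type on both sides. All 14 fibroblast defining markers were tested, and their summed level was 24795 to 30496 TPM in the earlier-numbered cultures and 27718 to 30623 TPM in the later-numbered ones. The 16 markers of mast cells, lymphocytes and erythroid cells stayed under 1 TPM in every culture. Markers of muscle and macrophages were highest in M1 and M2: the 26 skeletal muscle markers summed to 441 and 589.6 TPM there against 93.9 to 215 TPM in the other 6 cultures, and the 20 macrophage and leukocyte markers to 206 and 269 TPM against 46.7 to 123 TPM. The 17 endothelial markers were lowest there (22.9 and 26.8 TPM in sum against 29.5 to 35.6 TPM), and the 20 keratinocyte markers summed to 10.9 to 27.3 TPM, with W2 highest. Genes with any signal numbered 15104 to 15314 in the earlier-numbered and 14755 to 14997 in the later-numbered libraries, without overlap. The exact permutation test, testing both sides, gave p = 0.0286, the smallest that the 70 regroupings allow. Genes at 1 TPM or more overlapped, with 11848 to 12042 in the earlier-numbered and 11741 to 11898 in the later-numbered libraries (exact permutation test, p = 0.114). Sequencing depth, which affects such counts, is unknown. Y-linked Ddx3y was above 1 TPM in 3 of 4 earlier-numbered and 2 of 4 later-numbered cultures, and in 1 of 2 WT cultures on each side. Fbn1 itself did not differ detectably. Its level was 467 TPM in W1, 507 in W2, 563 in M1 and 522 in M2, and then 543 in W3, 446 in W4, 599.7 in M3 and 484 in M4. These ranges overlapped, and the difference was 0.00 ± 0.08 (limma adjusted p = 0.987).

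**Figure D1:**
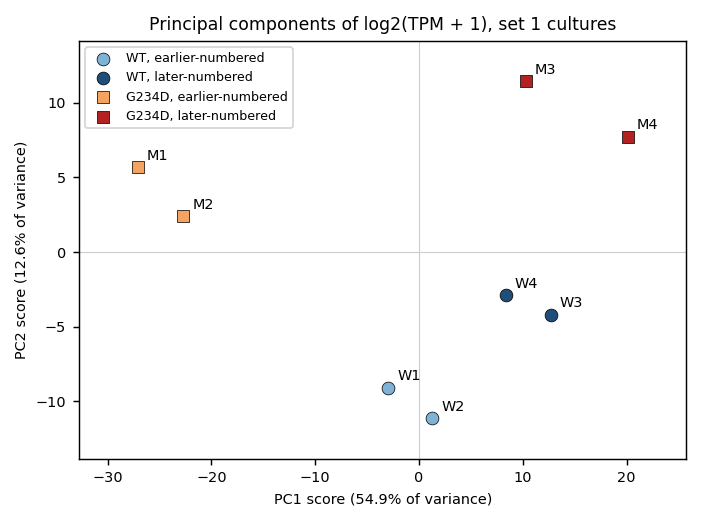
Scores of the 8 set 1 cultures on the first and second principal component of log2(TPM + 1) over 11901 genes, with the share of variance on each axis label. Points are cultures, coloured by number group and shaped by genotype. M1 and M2 lie at −27.1 and −22.7 on the first component, W1 and W2 at −2.96 and 1.29, and the later-numbered cultures between 8.38 and 20.1.

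The number groups differed in 851 of 11901 genes: 332 were called higher in the later-numbered cultures (2.79%) and 519 lower (4.36%). At an unadjusted p under 0.05 there were 3176 genes. The called differences were mostly small, with a median size of 0.39 on the log2 scale. Only 26 of the higher and 47 of the lower genes differed more than 2-fold in TPM + 1, which understates the change in TPM of low genes. The median over all genes tested was −0.02. Among called genes 39% were higher, and this share moved to 51% with median-of-ratios scaling and 47.9% with quantile normalization, so the balance of directions depends on the scaling.

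The result rested strongly on M1 and M2. In the principal component plot, the first component, with 54.9% of the variance, set these 2 cultures apart from all others, and the WT cultures of the number groups were closer together than the G234D cultures. Without M2 the count of called genes was 36, without M1 it was 125, and without both it was 15. Without W1 it was 312, without M3 350, without M4 297 and without W3 495, while leaving out W2 or W4 gave 882 and 764. With the mean level of Y-linked genes as a covariate, the count was 224. What part the marker genes of other cells in M1 and M2 have in the 851 calls was not tested. In bulk RNA, fewer cells of a type and less RNA per cell cannot be told apart.

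Within the WT cultures alone, W3 and W4 against W1 and W2, 197 genes were called: 86 higher in the later-numbered cultures (0.723%) and 111 lower (0.933%). This balance turned with the scaling, to 96 higher and 64 lower with median-of-ratios scaling and to 75 and 66 with quantile normalization. Of the 851 genes of set 1, 141 were called in the WT cultures in the same direction, 57 higher and 84 lower. All 851 had the same sign in WT, and 848 had WT values that did not overlap between the number groups. WT values of this kind were found for 15.6% of all genes tested in the higher and 30.8% in the lower direction. The WT cultures also entered the set 1 fit, so this is a description of the called genes. The differences of the called genes were smaller in WT, with a median size of 0.29 against 0.49 in the G234D cultures, and for 761 of the 851 genes the G234D difference was the larger one.

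A fit on 4 libraries has few degrees of freedom, and the WT count depends on it. When the WT difference was taken from a fit of all 4 groups, which pools the spread over both genotypes, 14 genes were called, 9 higher (0.0756%) and 5 lower (0.042%). All 14 were among the 197. When only M1 and M2 were left out, 15 genes were called, 11 higher (0.0924%) and 4 lower (0.0336%); this fit compares the same WT cultures and takes part of its spread from M3 and M4.

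The G234D cultures share no library with the WT cultures, so the genes called in WT could be looked up in them. Of the 86 genes called higher in WT, 59 (68.6%) were higher in both later-numbered G234D cultures than in both earlier-numbered ones, against 28.8% of all genes. Of the 111 called lower in WT, 90 (81.1%) were lower without overlap, against 32.7% of all genes. In the opposite direction without overlap were 7 and 3 genes. The WT and G234D differences had the same sign for 61.1% of all genes, and their correlation across genes, which are not independent replicates, was 0.442 (Pearson) and 0.351 (Spearman).

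**Figure D2:**
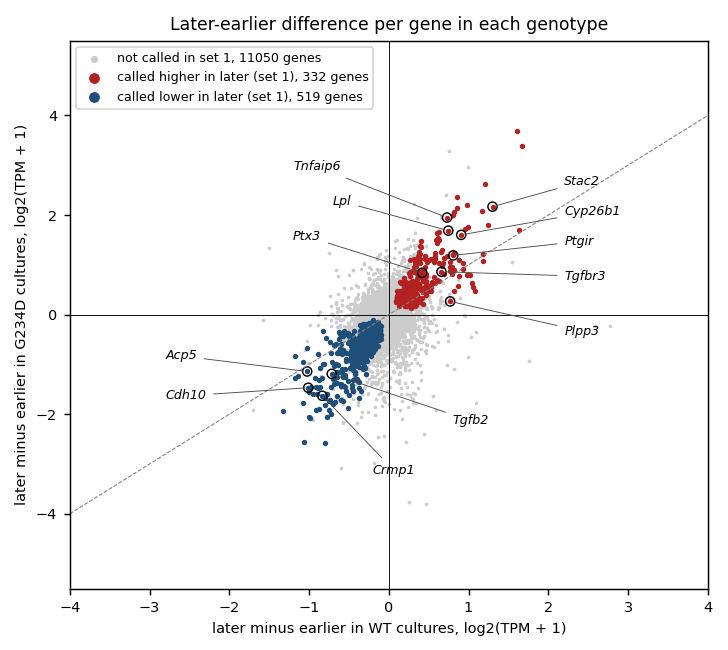
Each point is 1 of the 11901 genes: the later minus earlier difference on the log2(TPM + 1) scale in WT cultures on the horizontal axis and in G234D cultures on the vertical axis, which share no library. Genes called in set 1 lie in the upper right (332, red) or the lower left (519, blue), and the dashed line marks equal differences. Circles mark the 12 genes called in set 1, in WT alone and in the WT contrast of all 4 groups.

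Of the 141 genes that held in WT alone, 12 were also called in the fit of all 4 groups, and 8 of these again without M1 and M2. The 8 were Tgfbr3, Stac2, Cyp26b1, Lpl, Plpp3 and Tnfaip6, all higher in the later-numbered cultures, and Tgfb2 and Cdh10, both lower. The other 4 were Ptgir and Ptx3, higher, and Acp5 and Crmp1, lower. Crmp1, Plpp3, Ptx3 and Tnfaip6 lie outside the rule for named genes and are given because they belong to these 12.

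A ligand and a co-receptor of TGF-beta signalling moved in opposite directions. Tgfbr3, or betaglycan, is a membrane proteoglycan that presents TGF-beta ligands, above all TGF-beta 2, to the signalling receptors. It stood at 33.9 TPM in W1, 30.5 in W2, 30.3 in M1 and 31.1 in M2, and at 55.4 in W3, 47.7 in W4, 58.1 in M3 and 55.1 in M4. All later-numbered cultures lay above all earlier-numbered ones, with a difference of 0.76 ± 0.07 (limma adjusted p = 0.00506) and, in WT alone, of 0.66 ± 0.09 (0.014). Tgfb2, the gene of the TGF-beta 2 ligand, was at 20.2 TPM in W1, 21.2 in W2, 21.9 in M1 and 22.4 in M2. It was at 12.9 TPM in W3, 11.6 in W4, 9.01 in M3 and 9.27 in M4. The groups again did not overlap; Tgfb2 fell by 0.95 ± 0.10 (adjusted p = 0.00506) and by 0.71 ± 0.08 in WT (0.00839). Of the 30 tested genes of the TGF-beta response list, 1 rose and 6 fell, against 2.79% and 4.36% of all genes. These counts include the 2 genes above, as Tgfbr3 was the 1 that rose and Tgfb2 was among the 6. Inhba, the activin A subunit gene, was also among those that fell (−0.42), and the list median was −0.10 (WT −0.05). In G234D 4 were called higher and 8 lower (6.32% and 9.58% of all genes).

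Cyp26b1 encodes an enzyme that degrades retinoic acid, a vitamin A derivative that patterns the embryonic skin. Its level was 10.3 TPM in W1, 10.8 in W2, 4.50 in M1 and 4.87 in M2, and 20.2 in W3, 21.1 in W4, 14.8 in M3 and 17.9 in M4. The later-numbered cultures were higher in each genotype, by 0.91 ± 0.08 in WT (limma adjusted p = 0.00253) and by 1.60 in G234D, and the 2 differences themselves differed (interaction adjusted p = 0.0398). Rdh10, which makes retinaldehyde for retinoic acid synthesis, and Rxra, a partner of the retinoic acid receptors, also rose in set 1 (1.02 and 0.35) but were not called in WT (adjusted p = 0.192 and 0.168). In set 1, 3 of 12 tested genes of the retinoic acid pathway rose and none fell, against 2.79% and 4.36% of all genes. In WT 1 was called higher and 1 lower (0.723% and 0.933% of all genes). In G234D 5 were called higher and 2 lower (6.32% and 9.58% of all genes). The list median was 0.15 (WT 0.02).

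Stac2, a gene of the STAC family of adaptors of voltage-gated calcium channels, showed the widest difference among the 12. It was at 8.15 TPM in W1, 7.64 in W2, 3.27 in M1 and 3.40 in M2, and at 24.4 in W3, 17.9 in W4, 17.9 in M3 and 19.1 in M4. The rise was 1.30 ± 0.14 in WT (limma adjusted p = 0.0118) and 2.17 in G234D. Cdh10, a type II cadherin of cell adhesion, was at 11.4 TPM in W1, 11.6 in W2, 16.7 in M1 and 14.6 in M2, and at 4.75 in W3, 5.73 in W4, 5.56 in M3 and 4.51 in M4. It fell by 1.01 ± 0.11 in WT (0.00718) and by 1.24 ± 0.11 in set 1 (0.00506), with no overlap between number groups. Crmp1, a cytosolic phosphoprotein first known from neurons, fell from 8.89 and 8.57 TPM in W1 and W2 to 4.36 and 4.56 TPM in W3 and W4, a WT difference of −0.83 ± 0.11 (0.00924).

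**Figure D3:**
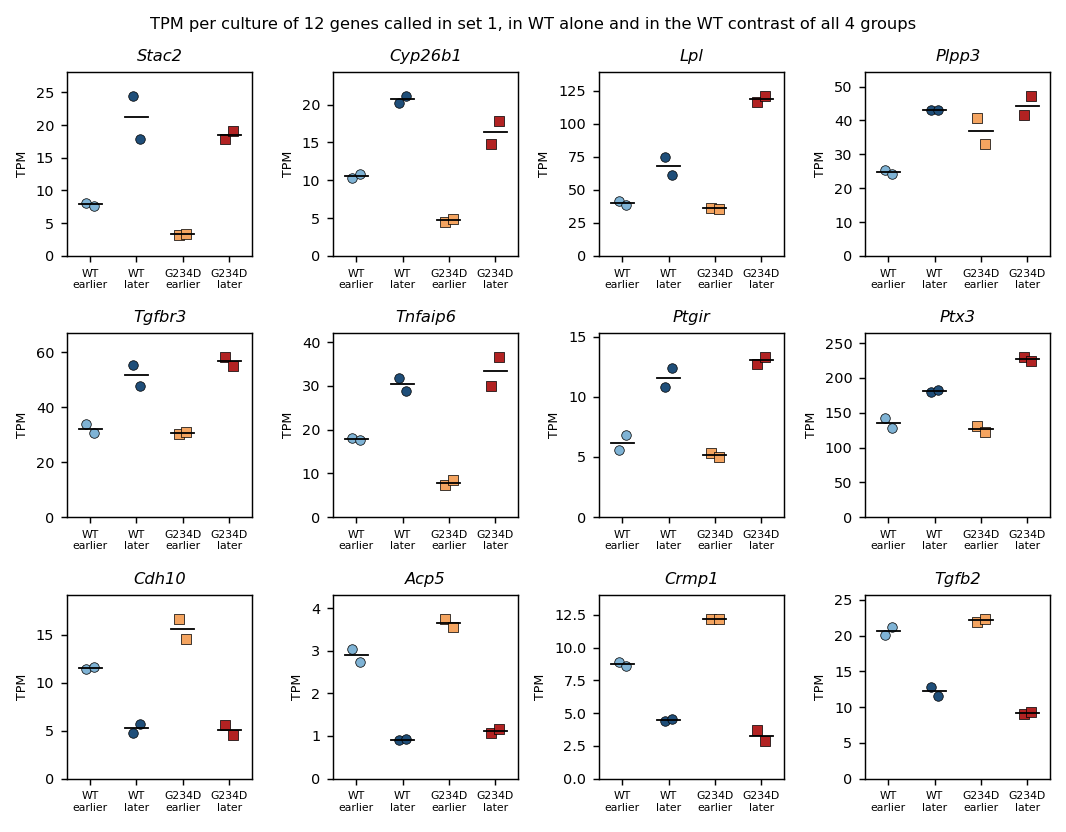
TPM in each of the 8 cultures for the 12 genes called in set 1, in WT alone and in the WT contrast of all 4 groups. Each point is 1 culture, each bar the mean of the 2 cultures of a group, and every axis starts at 0. Later-numbered cultures lie apart from earlier-numbered ones within each genotype, most narrowly for Plpp3 in G234D (40.7 and 33.1 TPM earlier, 41.6 and 47.3 TPM later).

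Lipid and prostanoid genes were also among the 12. Lpl, lipoprotein lipase, an early gene of the adipocyte lineage, was at 41.4 TPM in W1, 38.6 in W2, 36.5 in M1 and 35.8 in M2. It was at 75.0 TPM in W3, 61.2 in W4, 116 in M3 and 121 in M4. The earlier-numbered cultures were alike in both genotypes and the later-numbered G234D cultures were highest, with a WT difference of 0.75 ± 0.10 (limma adjusted p = 0.0182) and an interaction of 0.94 (0.00861). Plpp3, which dephosphorylates lysophosphatidic acid and other lipid phosphates, was at 25.4 and 24.3 TPM in W1 and W2 and at 43.0 and 43.2 TPM in W3 and W4, a WT rise of 0.77 ± 0.06 (0.00195). In G234D its difference of 0.27 was not called (0.162). Ptgir, the prostacyclin receptor, was at 5.57 and 6.83 TPM in W1 and W2 and 10.8 and 12.4 TPM in W3 and W4, a WT rise of 0.81 ± 0.12 (0.0166).

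Of the 20 tested adipogenic genes 6 rose and 1 fell in set 1, against 2.79% and 4.36% of all genes. Differences were positive for 13 and negative for 7, with a median of 0.13 (WT 0.07). In WT 2 rose and none fell (0.723% and 0.933% of all genes). In G234D 8 rose and 2 fell (6.32% and 9.58% of all genes). The members described here are all among those with positive differences. Cebpd, an early transcription factor of adipogenesis and of the glucocorticoid response, was at 24.8 to 29.4 TPM in the earlier-numbered and 36.9 to 43.8 TPM in the later-numbered cultures, and it rose by 0.47 ± 0.08 in WT (limma adjusted p = 0.0265). Ebf1 and Cebpb, further regulators of this lineage, rose in set 1 (0.36 and 0.34) and were not called in WT (0.06 and 0.063). Of the 26 cholesterol synthesis and uptake genes 24 had positive differences in set 1, where 4 rose (2.79% of all genes) and none fell. In WT 6 rose (0.723% of all genes) and 23 were higher without overlap (15.6% of all genes), with a median of 0.22. In G234D 2 rose and 1 fell (6.32% and 9.58% of all genes), with a median of 0.16. Their summed level was 2449 and 2474 TPM in the earlier-numbered and 2838 and 2901 TPM in the later-numbered WT cultures. In G234D only M4 (2763 TPM) was raised, and M3 (2202 TPM) lay between M1 (2166 TPM) and M2 (2267 TPM). Hmgcs1, an early enzyme of the mevalonate pathway, was at 229 TPM in W1, 214 in W2, 185 in M1 and 208 in M2, against 270 in W3, 265 in W4, 215 in M3 and 252 in M4. Its levels overlapped between number groups over both genotypes but not within WT (0.27 ± 0.05, 0.0408).

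Tnfaip6, or TSG-6, binds hyaluronan and is induced by inflammatory signals, and Ptx3, a long pentraxin, is its partner in the hyaluronan matrix. Tnfaip6 was at 18.0 TPM in W1, 17.7 in W2, 7.26 in M1 and 8.47 in M2, and at 31.8 in W3, 28.8 in W4, 30.1 in M3 and 36.5 in M4. Its earlier-numbered values were lowest in M1 and M2; the WT rise was 0.73 ± 0.07 (limma adjusted p = 0.00508) and the interaction 1.22 (0.00718). Ptx3 was at 142 and 128 TPM in W1 and W2 and 179 and 183 TPM in W3 and W4, a WT rise of 0.42 ± 0.06 (0.014). Serping1, the C1 inhibitor of the complement cascade, was at 11.7 to 12.7 TPM in the earlier-numbered and 18.3 to 21.5 TPM in the later-numbered cultures. Its WT difference was 0.60 ± 0.08 (0.0142), and the fit of all 4 groups left it at 0.0525.

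Of the 30 tested chemokine, cytokine and NF-kappaB genes, 5 rose in set 1 and 1 fell, against 2.79% and 4.36% of all genes. The list median, however, was −0.10 in set 1, 0.13 in WT and −0.47 in G234D. Cxcl5, a neutrophil chemokine, was at 32.7 to 43.5 TPM in the earlier-numbered and 66.1 to 99.7 TPM in the later-numbered cultures, and rose by 0.93 in WT (± 0.12, limma adjusted p = 0.0322). Relb, a subunit of the noncanonical NF-kappaB pathway, rose by 0.47 ± 0.09 in WT (0.0444). Cxcl1, a close relative of Cxcl5, rose in set 1 (1.33, 0.0138) and was not called in WT (0.125). Casp1, the protease of inflammasomes, was at 1.12 TPM in W1, 1.99 in W2, 0.852 in M1 and 0.692 in M2, and at 5.23 in W3, 4.27 in W4, 1.56 in M3 and 5.57 in M4. M3 lay within the range of the earlier-numbered cultures, and the differences were of like size in WT (1.19 ± 0.19, 0.0226) and in G234D, where the wider spread left 1.21 uncalled (0.137). Casp1 was called in set 1 (1.20 ± 0.27, 0.0369). Fgl2, a secreted fibrinogen-like protein, rose from 7.02 and 7.48 TPM in W1 and W2 to 19.7 and 17.5 TPM in W3 and W4 (1.25 ± 0.09, 0.00124).

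Contractile genes were lower in the later-numbered cultures. All 30 tested genes of this list had negative differences. In set 1, 14 were called lower (4.36% of all genes) and none higher, and 6 were called lower in WT alone (0.933% of all genes). The list median was −0.25 in set 1, −0.17 in WT and −0.35 in G234D. Acta2, smooth muscle actin, was at 6215 TPM in W1, 6487 in W2, 6179.8 in M1 and 6830.2 in M2, and at 5373 in W3, 5152 in W4, 4554 in M3 and 4422 in M4. The groups did not overlap, and Acta2 fell by 0.40 ± 0.07 in set 1 (limma adjusted p = 0.0175) and by 0.27 ± 0.05 in WT (0.0289). Cnn1, calponin, which binds actin and dampens myosin, was at 299 TPM in W1, 304 in W2, 283 in M1 and 359.6 in M2, and at 221 in W3, 217 in W4, 187 in M3 and 143 in M4. It fell by 0.71 ± 0.13 (0.0281) and by 0.46 ± 0.05 in WT (0.00508). Tagln, or SM22, fell in set 1 (−0.34, 0.029) and was not called in WT (−0.19, 0.121). None of the 3 was called in WT when the spread was pooled over all 4 groups (adjusted p = 0.132 to 0.297).

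Smooth muscle genes are classic targets of serum response factor, which binds the CArG box. The 250 bases before the first listed RefSeq start of each contractile gene (build GRCm38.p6) were therefore searched for that motif on both strands. Only exact matches of 10 bases were counted (CC, then only A or T, then GG). A box with a mismatch, outside this window or at another start was missed. It was present in 4 of the 27 contractile genes with a promoter in the table (14.8%) against 378 of 27025 promoters in all (1.4%). The stretches of 30 bases that hold it are shown because only 1 of the 4 belongs to a gene that fell; capitals mark the CArG box, and all are written 5′ to 3′ on the gene's strand.
Myl9, chr2:156775293-156775322, plus strand: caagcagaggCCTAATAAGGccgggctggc
Cnn2, chr10:79988534-79988563, plus strand: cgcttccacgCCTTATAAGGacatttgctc
Vcl, chr14:20929161-20929190, plus strand: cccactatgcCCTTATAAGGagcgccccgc
Fhl2, chr1:43196838-43196867, minus strand: catttagagaCCAAAAAAGGcttgcaggag
Myl9, the regulatory light chain of smooth muscle myosin, was at 1196 TPM in W1, 1299 in W2, 1116 in M1 and 1304 in M2, and at 1072 in W3, 1007 in W4, 917 in M3 and 878 in M4. It fell by 0.34 in set 1 (limma adjusted p = 0.0242) and was not called in WT (0.0602). Cnn2, a calponin of non-muscle cells, Vcl, the focal adhesion protein vinculin, and Fhl2, a LIM protein, had differences of −0.13, −0.19 and −0.04 and were not called; these 3 lie outside the rule for named genes. The motif was in 1 of 12 promoters of the contractile genes that fell and in 3 of 15 of those not called. Of all genes tested, 114 of 9465 with a promoter held it (1.2%). It was in 10 of 404 promoters of all genes that fell (2.48%) and in 2 of 248 of those that rose (0.806%). Whether these shares differ was not tested. A match in this window is a description of the sequence and does not show binding. The lack of an exact match does not show that a gene has no CArG box.

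Markers of pericytes and smooth muscle overlap with that list and behaved alike. Of these, 7 of 15 were called lower (4.36% of all genes) and none higher, with a median of −0.40 (WT −0.26). Among them Notch3, a Notch receptor of mural cells, fell also in WT (−0.52 ± 0.10, limma adjusted p = 0.0495), as did the Notch target Heyl (−0.65 ± 0.13, 0.0493). Integrins, the receptors that tie the cytoskeleton to the matrix, had negative differences in 12 of 13 tested genes. Of the 13, 4 were called lower (4.36% of all genes). Itga5, the fibronectin receptor subunit, was at 402 to 511 TPM in the earlier-numbered and 225 to 327 TPM in the later-numbered cultures and fell in WT by 0.40 ± 0.06 (0.0142). Itgb1, its partner subunit, fell in set 1 (−0.37, 0.0272), was not called in WT (−0.18, 0.105) and differed between genotypes (interaction −0.39, 0.0181).

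**Figure D4:**
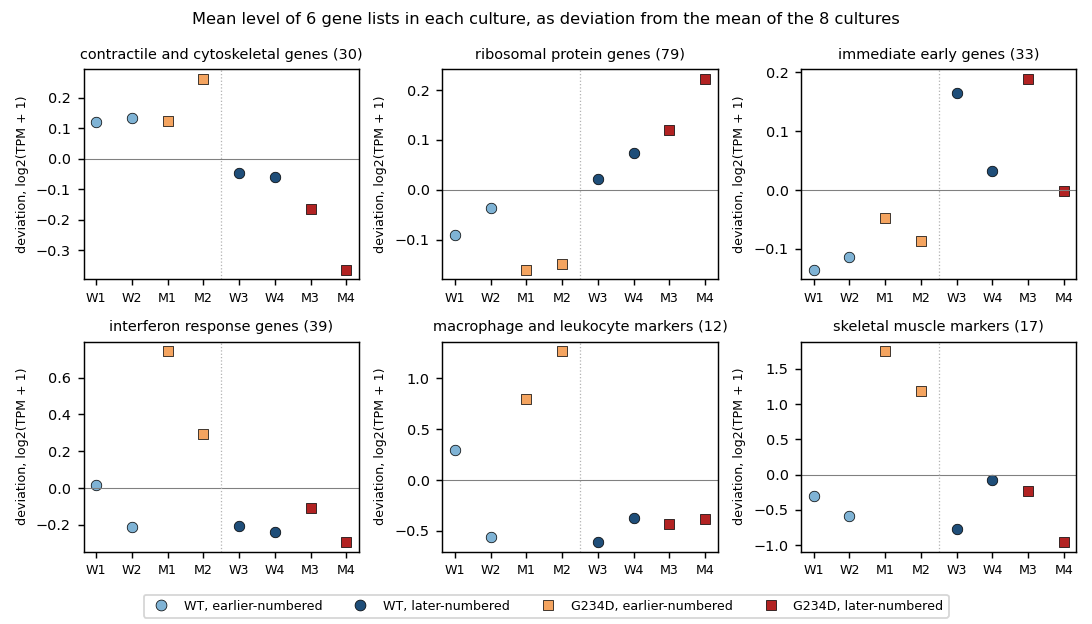
Mean log2(TPM + 1) of 6 gene lists in each culture, as the deviation from the mean of the 8 cultures, with the number of tested genes in brackets. The dotted line parts the earlier-numbered (left) from the later-numbered cultures (right). Contractile genes are lower and ribosomal protein genes higher in all 4 later-numbered cultures, whereas the interferon, macrophage and muscle lists are raised mainly in M1 and M2.

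None of the 9 tested fibrillar collagens was called by limma in set 1 or in WT, and 1 and 8 of them had an unadjusted p under 0.05. Their median was −0.02 in set 1, −0.23 in WT, where 8 of 9 were lower without overlap (30.8% of all genes), and 0.21 in G234D. Of 26 collagen processing genes, 4 were called lower (4.36% of all genes) and none higher in set 1, with a median of −0.07. In WT 1 was called lower (0.933% of all genes) and 20 of the 26 were lower without overlap (30.8% of all genes), with a median of −0.12. In the microfibril and elastic fibre list 1 of 28 tested genes was called in each direction, near the share of all genes (2.79% higher, 4.36% lower). Its median was 0.06 (WT −0.02). Loxl2, a lysyl oxidase that crosslinks collagen, was the one that fell (−0.59 ± 0.09, limma adjusted p = 0.0143), and it was not called in WT (0.0822).

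Single matrix genes showed larger changes. Prelp, a small leucine-rich proteoglycan that anchors basement membranes to collagen, had the largest WT rise of the genes called both in set 1 and in WT. Its level was 5.84 TPM in W1, 7.15 in W2, 9.77 in M1 and 8.58 in M2, and 26.6 in W3, 18.3 in W4, 26 in M3 and 38.8 in M4. The difference was 1.66 ± 0.15 in set 1 (limma adjusted p = 0.00506) and 1.63 ± 0.18 in WT (0.0178), while the fit of all 4 groups left the WT value at 0.0643. Dcn, decorin, a proteoglycan that coats collagen fibrils, was at 62.0 TPM in W1, 69.8 in W2, 100.1 in M1 and 90.6 in M2, and at 106 in W3, 99.6 in W4, 178 in M3 and 130 in M4. Decorin rose within each genotype, by 0.63 ± 0.07 in WT (0.00679), although W4 lay within the range of M1 and M2. Col23a1, a transmembrane collagen and a papillary marker, rose from 1.33 and 1.17 TPM in W1 and W2 to 4.79 and 3.45 TPM in W3 and W4 (1.17 ± 0.17, 0.0148).

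Basement membrane collagen IV was lower. Col4a1 was at 864 TPM in W1, 965 in W2, 1204 in M1 and 1139 in M2, and at 716 in W3, 684 in W4, 593 in M3 and 596 in M4. The earlier-numbered G234D cultures were highest and the later-numbered ones lowest, so that the fall was −0.38 ± 0.06 in WT (limma adjusted p = 0.02) and −0.98 in G234D, with an interaction of −0.59 (0.012). Its partner Col4a2 was not called in WT (−0.31, 0.059) and had an interaction of −0.56 (0.0205). Thbs2, a thrombospondin that restrains vessel growth, fell in set 1 and in WT alone, and Svep1, a large adhesive matrix protein, rose in set 1 (0.82, 0.00905) and was not called in WT (0.159).

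Of 43 matrix proteases and inhibitors, 5 rose and 8 fell, against 2.79% and 4.36% of all genes. Mmp9, the gelatinase that cuts denatured collagen and collagen IV, was at 8.82 TPM in W1, 9.49 in W2, 7 in M1 and 8.83 in M2, and at 3.65 in W3, 4.74 in W4, 2.09 in M3 and 2.41 in M4. The groups did not overlap, and Mmp9 fell by 0.98 ± 0.13 in WT (limma adjusted p = 0.0116). Adamts2, the procollagen N-proteinase, rose (0.65, 0.0216) and its relative Adamts14 fell (−0.66, 0.0216), and neither was called in WT (0.134 and 0.111). Fap, fibroblast activation protein, a surface protease of activated fibroblasts, was at 10 TPM in W1, 9.41 in W2, 11.4 in M1 and 11.8 in M2, and at 3.19 in W3, 5.18 in W4, 7.18 in M3 and 4.15 in M4. It fell by 1.07 ± 0.18 in WT (0.041).

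**Figure D5:**
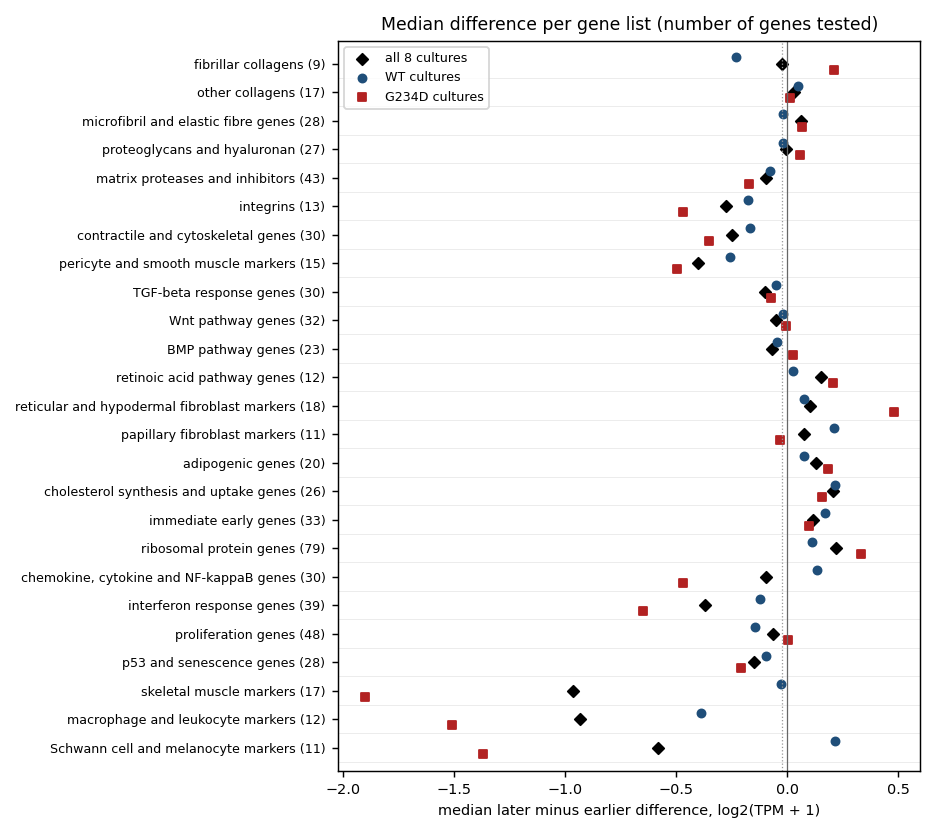
Median later minus earlier difference on the log2(TPM + 1) scale for 25 gene lists, with the number of tested genes in brackets: all 8 cultures (diamonds), WT cultures (circles) and G234D cultures (squares). The solid line is at 0 and the dotted line at the median of all genes tested, −0.02. Contractile genes, integrins and pericyte markers lie left of both lines in all 3 fits and cholesterol and ribosomal protein genes right of them, while the skeletal muscle list is at −0.03 in WT and −1.90 in G234D.

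Fibroblast subtype markers were called higher more often than lower, against 2.79% and 4.36% of all genes, but their signs were mixed. Of 18 tested reticular and hypodermal markers 6 rose and 1 fell, with 10 positive and 8 negative differences (median 0.10, WT 0.08). The 1 that fell was Acta2, described above with the contractile genes. Of 11 tested papillary markers 3 rose and none fell, with 7 positive and 4 negative differences (median 0.08, WT 0.21). The genes described next all rose and do not stand for the markers with negative differences. Pdgfra, the PDGF receptor that marks fibroblast progenitors, was at 83.3 TPM in W1, 90.2 in W2, 37.8 in M1 and 48.7 in M2, and at 143 in W3, 123 in W4, 134 in M3 and 137 in M4. The later-numbered cultures were alike in both genotypes and the earlier-numbered G234D cultures were lowest; the WT rise was 0.61 ± 0.08 (limma adjusted p = 0.0158) and the interaction 1.02 (0.024). Ly6a, or Sca-1, of hypodermal fibroblasts, was at 299 TPM in W1, 302 in W2, 368 in M1 and 304 in M2, and at 685 in W3, 539 in W4, 493 in M3 and 684 in M4. It rose by 1.01 ± 0.11 in WT (0.0278), but reads of the Ly6 family may be split among near-identical genes. Dpt, dermatopontin, a marker of universal fibroblasts, rose in set 1 (0.98, 0.0134) and was not called in WT (0.0953), whereas Cd9, a tetraspanin, rose in both (WT 0.30 ± 0.06, 0.041). Ntn1, netrin-1, a papillary marker, was at 8.02 to 10.9 TPM in the earlier-numbered and 16.3 to 24.3 TPM in the later-numbered cultures and rose by 0.77 ± 0.09 in WT (0.00841).

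Among growth factors, Fgf10, a mesenchymal signal to epithelia, was at 2.26 TPM in W1, 2.55 in W2, 2.03 in M1 and 2.30 in M2, and at 4.79 in W3, 6.22 in W4, 5.18 in M3 and 5.86 in M4. All later-numbered cultures lay above all earlier-numbered ones, with 0.93 ± 0.15 in WT (limma adjusted p = 0.02). Wnt genes went both ways, with 2 of 32 tested called higher and 7 lower, against 2.79% and 4.36% of all genes. Their median was −0.05 (WT −0.02). Wnt2b, a canonical Wnt ligand, was at 4.99 to 7.06 TPM in the earlier-numbered and 0.628 to 2.55 TPM in the later-numbered cultures and fell by 1.08 ± 0.17 in WT (0.0178). Wnt5a, a noncanonical ligand, fell by 0.34 ± 0.06 in WT (0.0289). Lgr5, the R-spondin receptor, was at 23.1 TPM in W1, 31.3 in W2, 6.85 in M1 and 8.45 in M2, and at 122 in W3, 62.7 in W4, 62.6 in M3 and 128 in M4. Despite a set 1 difference of 2.53 ± 0.44 (0.0284), the spread between W3 and W4 left the WT difference of 1.67 ± 0.47 uncalled (0.341).

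Immediate early genes, the transcription factors that serum and stress switch on within minutes, were higher. Of 33 tested, 8 rose (2.79% of all genes) and none fell in set 1, with a median of 0.12. In WT 5 rose (0.723% of all genes), none fell, and the median was 0.17. Myc, which drives growth, was at 51.1 TPM in W1, 51.5 in W2, 52.6 in M1 and 48.4 in M2, and at 63.5 in W3, 63.1 in W4, 56.1 in M3 and 57.9 in M4. Myc rose by 0.30 ± 0.05 in WT (limma adjusted p = 0.0349). Nr4a1, an orphan nuclear receptor, rose in set 1 (0.65, 0.0269); W3 at 68.1 TPM stood above W4 at 46.6 TPM, and the WT difference was not called (0.182). Btg1 and Egr2 also rose in set 1 (0.28 and 0.64) and were not called in WT (0.101 and 0.17).

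Ribosomal protein genes, which encode the structural proteins of the cytosolic ribosome, were higher in set 1 by a small and even amount. All 79 had positive differences, 43 were called higher (2.79% of all genes) and none lower, and the median was 0.22. With Y-linked level as a covariate limma called none of the 79, against 224 of all genes, and the median was 0.20. Without M1 and M2 it also called none, against 15 of all genes. In WT the median was 0.11 and limma called no gene, although 71 of the 79 were higher without overlap (15.6% of all genes) and 49 had an unadjusted p under 0.05. Rps4x, for example, was at 3081 TPM in W1, 3209 in W2, 2826 in M1 and 2896 in M2, and at 3432 in W3, 3623 in W4, 3578 in M3 and 3933 in M4. M1 and M2 were lowest and M4 highest, and the difference was 0.28 ± 0.06 in set 1 (limma adjusted p = 0.0325) and 0.17 ± 0.05 in WT (0.143). Ribosomal protein genes have many processed pseudogenes, and the sources do not state how reads were shared between these. The class summed to 135915 to 148289 TPM in the earlier-numbered and 154549 to 178200.0 TPM in the later-numbered cultures, and TPM sum to a fixed total. With median-of-ratios scaling the list median was 0.25 and with quantile normalization 0.15, and that of contractile genes was −0.22 under both.

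Interferon response genes were lower mainly against M1 and M2. Of 39 tested, 1 rose and 6 fell, against 2.79% and 4.36% of all genes. Their median was −0.37 in set 1, −0.65 in G234D and −0.12 in WT. Usp18, the deubiquitinase that damps interferon signalling, was at 3.91 TPM in W1, 3.55 in W2, 14.2 in M1 and 6.69 in M2, and at 1.10 in W3, 1.72 in W4, 2.14 in M3 and 1.10 in M4. It fell in WT as well (−0.98 ± 0.17, limma adjusted p = 0.0279). Oasl2, an oligoadenylate synthetase relative, fell in set 1 (−0.82, 0.0325) and was not called in WT (0.0742). H2-K1, a class I histocompatibility gene with close relatives, rose in set 1 and in WT (0.32 ± 0.06, 0.041). The macrophage and leukocyte markers were likewise highest in M1 and M2, but with M2 above M1, whereas the interferon list had M1 above M2. All 12 tested macrophage and leukocyte markers had negative differences, and Laptm5 and Ctss were called lower (4.36% of all genes). The median of these markers was −0.93 in set 1 and −0.39 in WT, where limma called none and 1 had an unadjusted p under 0.05. Their part in the interferon result was not tested.

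Other genes with large WT falls were Acp5, Brinp3, Ppbp, Pstpip1 and the granzyme genes Gzmd and Gzme. Acp5, tartrate-resistant acid phosphatase, known from osteoclasts and macrophages, was at 3.04 TPM in W1, 2.74 in W2, 3.75 in M1 and 3.54 in M2, and at 0.896 in W3, 0.932 in W4, 1.06 in M3 and 1.15 in M4. It fell by 1.02 ± 0.15 in WT (limma adjusted p = 0.0171) and was called in the fit of all 4 groups (0.042). Gzme was at 7.57 to 12 TPM in the earlier-numbered and 1.56 to 4.06 TPM in the later-numbered cultures; granzymes D and E are close copies, and their reads could be split between them. Nnat, neuronatin, an imprinted gene, fell from 21.6 and 18.3 TPM in W1 and W2 to 9.74 and 10.9 TPM in W3 and W4 (−0.88 ± 0.10, 0.00839). Bex3, Ptprz1 and Stmn4, genes known from neural cells, fell in WT by 0.30, 0.69 and 0.82.

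Proliferation genes were rarely called: 1 of 48 tested was called lower and none higher, against 4.36% and 2.79% of all genes. Their median was −0.07 (WT −0.14, with 28 of 48 lower without overlap in WT against 30.8% of all genes). No circadian clock gene of 17 was called by limma, and 2 had an unadjusted p under 0.05. Hox genes, which keep the position of a fibroblast along the body, differed in part. In paralogue groups 1 to 8, 3 of 21 were called lower (Hoxa5, −0.56), against 4.36% of all genes. In groups 9 to 13, 1 of 11 was called higher (Hoxd9, 0.71), against 2.79% of all genes. In WT limma called none, and 5 and 3 had an unadjusted p under 0.05.

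The later-earlier difference itself differed between genotypes for 345 genes (2.9%), of which 325 were also called within the G234D cultures, where 752 genes were higher (6.32%) and 1140 lower (9.58%). Only 26 of the 345 were called in WT. Among those with the smallest p were Cadm4, Gas1, Sox10 and Col18a1. Cadm4, an adhesion molecule of Schwann cells and other glia, was at 11.9 TPM in W1, 12.9 in W2, 69.2 in M1 and 65.3 in M2, and at 13 in W3, 14.7 in W4, 18.3 in M3 and 16.0 in M4. Sox10, the transcription factor of neural crest, Schwann cells and melanocytes, was at 3.30 TPM in W1, 4.20 in W2, 22.4 in M1 and 22.6 in M2, and at 4.49 in W3, 5.16 in W4, 6.53 in M3 and 6.15 in M4. Both genes stood apart in M1 and M2 and were lower in the other 6 cultures, with interactions of −2.06 (limma adjusted p = 0.000366) and −1.98 (0.0017).

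Col18a1, the collagen of endostatin, showed the same pattern. It was at 49.8 TPM in W1, 47.5 in W2, 119 in M1 and 122 in M2, and at 53.9 in W3, 58.0 in W4, 70.4 in M3 and 64.4 in M4. Gas1, a membrane protein of growth arrest and Hedgehog signalling, was lowest in M1 and M2 (93.9 and 101 TPM, against 153 to 264 TPM in the others), with an interaction of 1.08 (limma adjusted p = 0.00155). The 18 Schwann cell and melanocyte markers summed to 301 and 316 TPM in M1 and M2 and to 178 to 237 TPM in the other 6 cultures. Their part in these differences was not tested.

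Set 2, the 2 WT and 3 G234D cultures numbered H9561 to H9565, took no part in any fit above and shares no library with either number group. Its mean was nearer to the later-numbered than to the earlier-numbered cultures for 63.8% of all genes tested. For genes called higher in set 1 this held for 277 of 332 (83.4%), and for genes called lower for 390 of 519 (75.1%). Usp18 was an exception, with 8.70 to 16.2 TPM in set 2. Tgfb2 was at 9.52 to 11.4 TPM and Tgfbr3 at 46.3 to 52.9 TPM in set 2, which are close to the later-numbered levels. The earlier-numbered mean includes M1 and M2, which lay apart from the other set 1 cultures, and WT means alone were not compared. Y-linked Ddx3y was at 0 TPM in every set 2 culture, against 3 of 4 earlier-numbered and 2 of 4 later-numbered cultures above 1 TPM. What part either has in these shares was not tested.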

How the data were processed

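RNA was sequenced from 13 primary fibroblast cultures in strand-specific libraries, per the labels' protocols. Per the file headers, the authors deposited TPM for 25655 genes. The submitters' processing notes name mm10; the sources used here do not state aligner, counter or annotation. TPM keep no read totals, so depth is unknown. Gene identifiers were matched to GENCODE M21 (25600 of 25655).

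Later minus earlier differences of log2(TPM + 1) were fitted with limma 3.58.1 in R 4.3.3 (mean-variance trend, robust), with genotype as a term in set 1 and within each genotype alone; the interaction was fitted over all 4 groups. The 181 Y-linked genes were left out, and a gene needed 1 TPM in 4 or more libraries. The median SE was 0.07 in set 1 and 0.08 in WT. The models were tested on simulated data. Groups follow the H numbers in the titles. The division, the 55 gene lists and the members were chosen with earlier results of these data known.

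Named genes were Fbn1, the 12 smallest p in each direction in set 1, the 12 largest WT differences in each direction among genes called in set 1 and in WT, the 5 smallest interaction p, and in each list up to 4 with the smallest p and the 2 with the highest TPM. Clone-like symbols (15 of the called genes) were counted and not named, and some genes that the rule selects are not reported here. Promoter sequences came from RefSeq. Figures were drawn with matplotlib 3.10.9. Alternatives tried were other pseudocounts, filters, scalings and models, and leaving out cultures.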

Additional observations from a re-analysis of the deposited data

Results flagged for a closer look

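For 16 named genes the later-earlier difference was tested to differ between genotypes (limma interaction, adjusted p 0.000366 to 0.0429). The G234D minus WT values were −2.06 for Cadm4, −1.98 for Sox10, −1.02 for Col18a1 and −1.49 for Aqp1, a water channel that rose in WT (1.03) and fell in G234D (−0.46). They were −0.59 for Col4a1, −0.56 for Col4a2, −0.80 for Crmp1 and −0.39 for Itgb1. Positive values were found for Gas1 (1.08), Tnfaip6 (1.22), Pdgfra (1.02), Lpl (0.94), Stac2 (0.87), Cyp26b1 (0.69), Ptx3 (0.42) and Mdfi (0.72), an inhibitor of myogenic factors that fell in WT (−0.72) and was level in G234D (0.01). Aqp1 and Mdfi were chosen after their values were seen, as the only 2 of the 14 WT genes of the fit of all 4 groups that were not called in set 1.

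In 4 cases a list mean had 1 culture far from the other 3 of its number group. On the log2(TPM + 1) scale these were the Wnt list in M3 (3.96 against 3.84 to 3.85), contractile genes in M2 (8.94 against 8.80 to 8.81), other collagens in M1 (6.07 against 6.15 to 6.16) and pericyte markers in M4 (5.70 against 6.03 to 6.08). Chance flags about 1 in 20 groups, and 4 of 116 were flagged.

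M4 held a trace of Y-linked transcripts, 0.0949 TPM of Ddx3y and 0.478 TPM of Eif2s3y, where W2 and W4 were at 0.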

How the results depend on the processing

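Cultures of one number share no label of animal, litter or day. Same-numbered WT and G234D cultures deviated from their group means with correlations of −0.00376 (numbers 1 and 2) and −0.101 (numbers 3 and 4). The limit for pairing was 0.1, but with 2 cultures in a group the deviations mirror each other. The sign then depends on the numbering, so this check cannot tell whether cultures were paired. With the replicate number as a random block 2041 genes were called, among them all 851. The block correlation was negative (−0.235) and the median SE was 0.0608 against 0.0702 in the main fit. The larger count goes with these smaller errors and is no separate support for the 851.

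The 851 calls of set 1 became 272 with no filter on low TPM, 392 without the mean-variance trend, 2155 when number group and genotype interacted in the model, 224 with Y-linked level as a covariate and 15 without M1 and M2, and lay between 36 and 882 when 1 culture was left out. The 197 WT calls became 0 with no filter, where 1984 genes had an unadjusted p under 0.05 (1 without the trend, 125 without the robust step, 14 in the fit of all 4 groups) and lay between 163 and 439 with 1 culture left out. Of the 141 genes called in both, 0 remained with no filter, 0 without the trend, 93 without the robust step and 12 in the fit of all 4 groups. The 1892 G234D calls became 0 with no filter (4267 at an unadjusted p under 0.05) and 1021 without the trend, and lay between 483 and 2516 with 1 culture left out. The 345 interaction calls became 122 and 109 under these 2 settings and lay between 46 and 691. Other pseudocounts, a 10 TPM filter and both scalings kept these totals within 1.5 times, although median-of-ratios scaling took the WT genes called lower from 111 to 64. None of the 851 genes changed sign under any alternative that still tested it.

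Without M1 and M2, the set 1 difference, which is then that of WT, turned to 0.15 for Cadm4, 0.20 for Col18a1 and 0.30 for Sox10; none of these was called in set 1. With 1 culture left out, the uncalled Fbn1 difference ranged over both signs (−0.0563 to 0.0674 in set 1, −0.125 to 0.157 in WT), as did that of Fhl2 in WT (−0.0852 to 0.0579), which median-of-ratios scaling turned to 0.022. The medians of 30 of 54 lists moved by more than the spread within groups without M1 and M2. Depth is unknown, so counting error of low genes could not be given.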
